A study of Mus musculus with 6 samples.

Results

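The Wnt ligands, receptors, inhibitors and effectors were taken as every probe whose gene symbol in the platform annotation names a Wnt, Frizzled, Dkk, Sfrp, Axin, Dishevelled or Tcf7-type gene, Lgr5, Lgr6, Lrp5 or Lrp6, or one of a short set of single genes such as Ctnnb1, Apc, Lef1 and Wif1. This gave 59 of the 16593 named genes, with 83 of the 25697 probes on the array. Of these, 22 probes of 18 genes were bright enough to be tested, and the 61 others are accounted for below. GIF-14 is an epithelial line from fetal mouse stomach, with the genotype Runx3-/-;p53-/-. Total RNA was hybridized to MouseRef-8 version 2 BeadChips (Illumina) from 3 samples kept in TGF-β1 at 2.5 ng/ml over 24 h and from 3 untreated samples, which the study's methods describe as biological triplicates of the pre-EMT, epithelial subpopulation. Treated and untreated cells carried the same deletions and came from a single line, so cells with Runx3 and p53 were not compared here.

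Wnt ligands are secreted, lipid-modified proteins that bind Frizzled receptors and the co-receptors Lrp5 and Lrp6. In the canonical branch this frees beta-catenin from a destruction complex built on Axin and Apc, and beta-catenin then acts with TCF/LEF factors to switch on target genes, several of which feed back on the pathway. Other branches act through Dishevelled on cell polarity and movement, and in the stomach epithelium Wnt signaling is known for maintaining stem cells at the gland base.

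After TGF-β1 the ligands Wnt7b, Wnt7a and Wnt5a and the receptor Fzd2 were higher, while the ligand Wnt4 and the receptor Fzd7 were lower. The best-known feedback targets of canonical signaling, Axin2, Lgr5, Lef1, Nkd1, Notum, Rnf43 and Znrf3, were not above background on any array of either group. Ctnnb1, which encodes beta-catenin, varied more between arrays of one group than between the groups.

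Promoter sequences are shown for 4 genes that changed in opposite directions, to give the genomic context in which the measured mRNAs start. They are the 250 bases before the annotated RefSeq transcript start (GRCm38.p6), printed 5′ to 3′ on the strand of the gene, with any searched motif in capitals. Wnt4 lies at chr4:137277385-137277634 (+ strand) and Fzd7 at chr1:59481897-59482146 (+ strand). Wnt7a lies at chr6:91411354-91411603 (− strand) and Tcf7l1 at chr6:72789046-72789295 (− strand). The first 2 sequences belong to genes that were lower after TGF-β1 and the last 2 to genes that were higher.
Wnt4: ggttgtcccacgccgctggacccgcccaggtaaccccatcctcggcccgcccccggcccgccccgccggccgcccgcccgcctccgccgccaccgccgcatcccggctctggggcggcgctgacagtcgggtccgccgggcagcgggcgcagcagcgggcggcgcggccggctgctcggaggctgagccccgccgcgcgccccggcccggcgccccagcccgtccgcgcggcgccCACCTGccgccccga
Fzd7: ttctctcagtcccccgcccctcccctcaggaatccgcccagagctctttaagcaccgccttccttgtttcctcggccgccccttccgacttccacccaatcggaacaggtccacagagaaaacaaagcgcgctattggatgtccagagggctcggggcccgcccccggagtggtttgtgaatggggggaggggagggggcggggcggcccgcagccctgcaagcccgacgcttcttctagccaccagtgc
Wnt7a: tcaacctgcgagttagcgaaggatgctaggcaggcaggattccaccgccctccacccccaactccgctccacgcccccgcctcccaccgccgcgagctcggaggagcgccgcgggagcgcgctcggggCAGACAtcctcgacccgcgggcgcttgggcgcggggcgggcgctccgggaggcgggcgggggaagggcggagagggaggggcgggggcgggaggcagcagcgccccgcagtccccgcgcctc
Tcf7l1: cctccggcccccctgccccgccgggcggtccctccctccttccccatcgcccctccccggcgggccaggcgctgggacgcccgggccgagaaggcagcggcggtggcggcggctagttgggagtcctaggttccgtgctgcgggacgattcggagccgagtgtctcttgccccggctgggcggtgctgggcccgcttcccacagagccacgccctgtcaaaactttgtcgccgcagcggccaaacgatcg

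Motifs of 4 kinds were searched on both strands. TGANTCA, the AP-1 site, was present in 6.75% of 32851 promoters of this length, CTTTGAT, the TCF/LEF site, in 3.21%, CAGGTG, the E-box bound by Snail and Zeb repressors, in 17.2%, and CAGACA, a Smad-binding element, in 17.1%. The Wnt4 promoter held 1 E-box, read as CACCTG on this strand, whose first base lay at position -15 from the start, and the Wnt7a promoter held 1 Smad element at -122. The 2 matches did not overlap any other searched motif. The Fzd7, Tcf7l1, Wls and both Tcf7l2 promoters held none of the 4 motifs. A promoter was matched for 6 of the 10 genes that passed the test. Wnt5a, Wnt7b, Porcn and Fzd2 were not matched. A match describes these letters only, and no factor was measured at these sites.

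Between 11381 and 11493 probes were above background on the TGF-β1 arrays, and between 11476 and 11797 on the untreated arrays. Above background here means a detection p under 0.05 against the negative control beads of the array. Across all tested probes, which are not independent replicates, arrays of one group correlated with r from 0.98 to 0.996 and arrays of different groups with r from 0.935 to 0.954. The 7 epithelial marker genes with a probe were detected above background on every array, with summed signals of 44000 to 49700 on TGF-β1 arrays and 41100 to 44400 on untreated arrays. Among them Cldn4 and Krt18 were higher after TGF-β1, by 2.90 and 0.47 on the log2 scale, and Krt19 and Cldn3 were lower, with differences of -1.59 and -0.48. Among 12 stomach epithelium markers, Muc5ac, Muc6, Pgc and Sox2 were not above background on any array. Gata6, Tff1 and Foxa2 (probe ILMN_1246216) were lower after TGF-β1, with log2 differences of -1.21, -1.27 and -0.63. Gkn1 and Gkn2 were above background on no TGF-β1 array and were at least 1.36-fold and 2.50-fold lower. No tested gene of the list was higher. The summed signal of the list was 2870 to 3360 on TGF-β1 arrays and 5610 to 6250 on untreated arrays. Of 8 fibroblast markers, Col1a1 was higher after TGF-β1 and the other 7 were not above background on any array, with summed signals of 868 to 915 on TGF-β1 arrays and 739 to 803 on untreated arrays. Of 5 endothelial markers, Cdh5, Kdr and Tie1 were not above background on any array, and Tek was on 2 untreated arrays. Pecam1 was at least 1.08-fold lower with probe ILMN_2700982, and its other probe was not above background on any array. Runx3 was not above background on any array. As a check of the treatment, Ccn2, a direct TGF-β target, was higher after TGF-β1 by 2.13 on the log2 scale. Of the other check genes, Skil was higher by 0.47 with probe ILMN_3126697. Its other probe and both Tgfbi probes were not above background on any array. In these bulk samples, a lower signal from fewer cells of one kind and from less RNA per cell cannot be told apart, and the part of the marker shifts in the Wnt results was not tested.

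All values below are log2 of the quantile-normalized signal, where a difference of 1 is a 2-fold change. They were compared with limma, with p-values adjusted by Benjamini-Hochberg over all 11189 probes tested, and signals of different probes are not comparable as levels. Of the 22 tested Wnt probes, 12 passed an adjusted p of 0.05, or 54.5%, beside 32.3% of all tested probes. Of these, 7 were higher (31.8%, beside 16.4%) and 5 were lower (22.7%, beside 15.9%) after TGF-β1. The median log2 fold change of the 22 was 0.08, beside 0.04 for all tested probes. A change of at least 1.5-fold was measured in 8 of the 12 (36.4% of the tested Wnt probes, beside 13.3%). A probe had to be above background in at least 1 group to be tested, so probes that fell to or rose out of background were bound to differ. Among the 16 Wnt probes above background on all 6 arrays, 8 passed, or 50%, beside 31.3% of the 9989 such probes. The smallest two-sided p an exact permutation of 3 arrays against 3 allows is 0.1, so no such test of a single probe could pass. The 2 groups of arrays did not overlap for 14 of the 22 tested Wnt probes, beside 45.9% of all tested probes. The 14 include both Wnt4 probes, Wnt7a, Wnt7b probe ILMN_2456957 and Wif1, which were tested only through the group where they were higher. The other 9 were among the 16 probes above background on all 6 arrays. The plot of all Wnt probes shows that most lay in the background range in both groups.

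**Figure D1:**
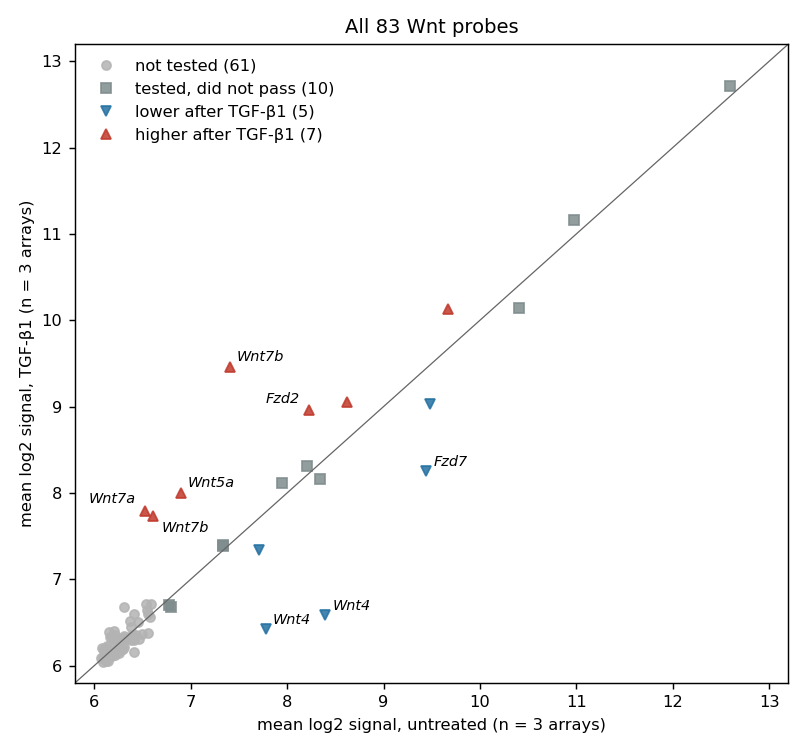
Mean log2 signal of each of the 83 Wnt probes in TGF-β1 cells (vertical axis) against untreated cells (horizontal axis), n = 3 arrays each, with the line of equality. The 61 untested probes cluster at the lower left, the 7 higher probes lie above the line and the 5 lower probes below it, and names are given to probes that passed with at least 1.5-fold.

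Ligand genes changed in both directions. Of 28 ligand probes of 19 genes, 6 probes of 4 genes were tested and all 6 passed, 4 of them higher and 2 lower, beside 32.3% of all tested probes. Only 2 of the 6 were above background on all 6 arrays, 1 each for Wnt5a and Wnt7b, and the other 4 entered the test only through the group where they were high, so that their count is no sign of how often ligands changed. Wnt7b, a ligand of epithelia that can signal through beta-catenin, had log2 signals of 9.67, 9.43 and 9.28 in TGF-β1 cells and 7.30, 7.26 and 7.66 in untreated cells (probe ILMN_2789692). The lowest TGF-β1 array lay well above the highest untreated array, and the change, 2.06 (SE 0.141, adjusted p = 1.56e-05 from limma), was 4.16-fold. It ranked 92 of 11189 probes by size of change. The other tested Wnt7b probe, ILMN_2456957, measured 7.79, 7.74 and 7.66 in TGF-β1 cells and 6.64, 6.47 and 6.70 in untreated cells. It changed in the same direction, by 1.12 (SE 0.092, adjusted p = 4.23e-05), from untreated signals that were above background on 2 of 3 arrays.

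Wnt7a, the closest relative of Wnt7b, had log2 signals of 7.83, 7.81 and 7.74 in TGF-β1 cells and 6.39, 6.75 and 6.42 in untreated cells. The groups did not overlap, and the change was 1.27 (SE 0.111, adjusted p = 6.44e-05), or 2.42-fold. Its probe was above background on all 3 TGF-β1 arrays and on 1 untreated array. Whether the Wnt7a and Wnt7b probes share targets was not checked, since probe sequences were not used here. Wnt5a, a ligand best known for signaling without beta-catenin in cell movement, had log2 signals of 7.98, 8.04 and 7.99 in TGF-β1 cells and 6.66, 7.09 and 6.95 in untreated cells (probe ILMN_2511913). The treated arrays were all higher, by 1.11 (SE 0.116, adjusted p = 0.000188), or 2.15-fold. The second Wnt5a probe, ILMN_2472917, did not enter the test because it was above background on 2 TGF-β1 arrays and on 0 untreated arrays. Its log2 signals were 6.67, 6.74 and 6.63 in TGF-β1 cells and 6.30, 6.30 and 6.33 in untreated cells. It was the only untested Wnt probe to pass when the detection filter was dropped (adjusted p = 0.00681, at least 1.04-fold higher).

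Wnt4, a ligand known from epithelial and kidney development, moved the other way. Probe ILMN_2889641 had log2 signals of 6.58, 6.61 and 6.56 in TGF-β1 cells and 8.28, 8.26 and 8.65 in untreated cells. None of the TGF-β1 arrays was above background, so Wnt4 was at least 3.34-fold lower, with each array's lowest detected signal as its floor (log2 difference -1.81, SE 0.116, adjusted p = 1.09e-05). The second probe, ILMN_2512663, measured 6.55, 6.45 and 6.26 in TGF-β1 cells and 7.72, 7.66 and 7.95 in untreated cells. It was at least 2.18-fold lower (-1.36, SE 0.113, adjusted p = 4.78e-05), again with 0 TGF-β1 arrays above background. The signals carry a background that was not subtracted. With normexp correction and quantile normalization (neqc) the log2 changes of the 2 ligand probes above background on all arrays were larger, 2.59 for Wnt7b and 1.79 for Wnt5a.

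The other 15 ligand genes had no tested probe. These were Wnt1, Wnt2, Wnt2b, Wnt3, Wnt3a, Wnt5b, Wnt6, Wnt8a, Wnt8b, Wnt9a, Wnt9b, Wnt10a, Wnt10b, Wnt11 and Wnt16, and the log2 signals of their 21 probes ran from 5.81 to 6.88. The lowest signal called above background was between 6.61 and 6.66 on each array. The 1 gene among them with any array above background was Wnt10a, with log2 signals of 6.57, 6.68 and 6.88 in TGF-β1 cells, above background on 2 arrays, and 6.59, 6.50 and 6.52 in untreated cells, above background on 0. The groups overlapped, and Wnt10a did not pass when the detection filter was dropped (adjusted p = 0.337 from limma). For the other 14 genes, changes were not detectable at this signal.

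**Figure D2:**
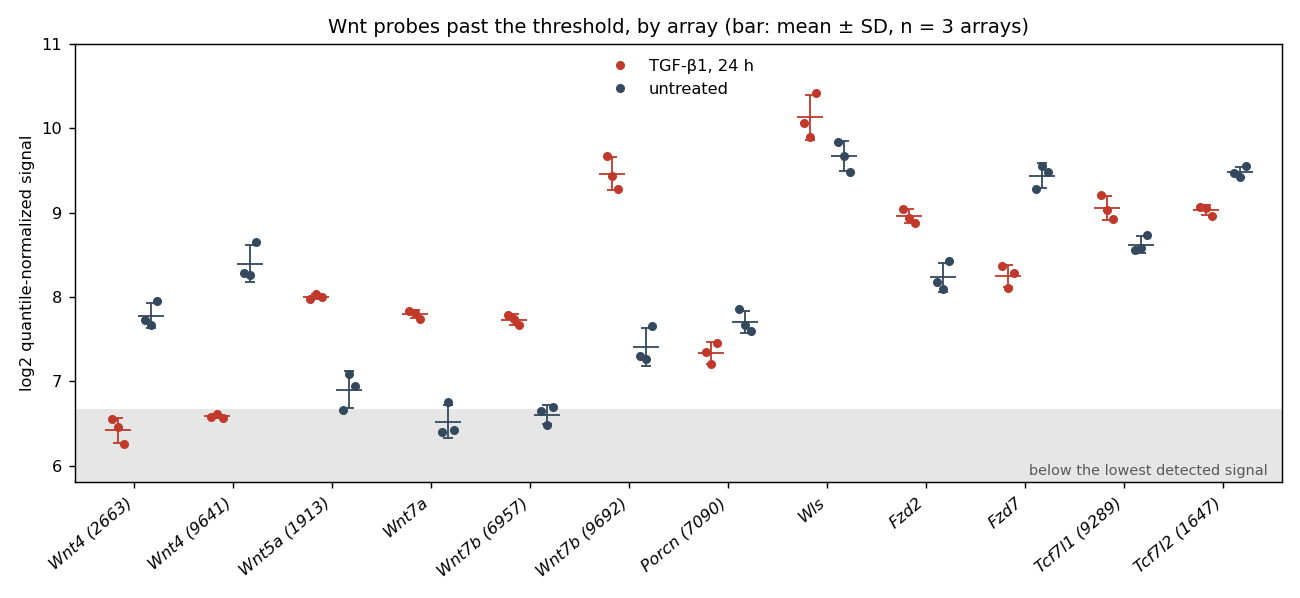
Log2 quantile-normalized signal on each array for the 12 Wnt probes past the threshold, TGF-β1 left of untreated, with bars for the mean ± SD (n = 3 arrays each). Digits in brackets end the probe name where a gene has several probes, and the grey band lies below the lowest detected signal. The groups are separate for each of the 12 probes, and Wnt4 sits in the grey band after TGF-β1.

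Porcn and Wls act before secretion. Porcn, which attaches the lipid to Wnt ligands, had 2 tested probes. Probe ILMN_2637090 measured 7.35, 7.20 and 7.46 in TGF-β1 cells and 7.85, 7.66 and 7.60 in untreated cells. It was lower by a log2 difference of -0.37 (SE 0.105, adjusted p = 0.0285), a call lost without TGF-β1 replicate 1 (0.0663) or 2 (0.107) or untreated replicate 1 (0.106) or 2 (0.0694). Probe ILMN_3093626 measured 10.10, 10.29 and 10.03 in TGF-β1 cells and 10.42, 10.47 and 10.33 in untreated cells, a difference of -0.27 (95% interval -0.49 to -0.05) that did not pass (adjusted p = 0.0641, but 0.046 without TGF-β1 replicate 2). Wls, the carrier that takes Wnt ligands to the cell surface, had log2 signals of 10.07, 9.90 and 10.42 in TGF-β1 cells and 9.84, 9.67 and 9.48 in untreated cells. It was higher by 0.46 (SE 0.149, adjusted p = 0.0445), and this call was lost without TGF-β1 replicate 1 (0.0766) or 3 (0.108) or untreated replicate 2 (0.107) or 3 (0.0901). The 3 probes thus showed separate groups but small changes close to the threshold.

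Among the receptors, 5 of 13 probes were tested and 2 passed in opposite directions. Fzd7, a Frizzled receptor found in stem cells of the gut and stomach, had log2 signals of 8.36, 8.11 and 8.28 in TGF-β1 cells and 9.28, 9.56 and 9.49 in untreated cells. Every TGF-β1 array was below every untreated array, and the difference was -1.19 (SE 0.108, adjusted p = 8.37e-05), or 2.28-fold. Fzd2, a Frizzled receptor that can bind Wnt5a, had log2 signals of 9.04, 8.94 and 8.88 in TGF-β1 cells and 8.17, 8.10 and 8.42 in untreated cells. It was higher on all 3 TGF-β1 arrays, by 0.72 (SE 0.106, adjusted p = 0.00122), or 1.65-fold.

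The remaining tested receptor genes did not pass. Fzd6 averaged 8.31 ± 0.27 in TGF-β1 cells and 8.21 ± 0.20 in untreated cells (SD, n = 3 each), with a difference of 0.10 (95% interval -0.25 to 0.45, adjusted p = 0.663 from limma). The co-receptor Lrp5 averaged 7.39 ± 0.12 in TGF-β1 cells and 7.33 ± 0.14 in untreated cells, a difference of 0.06 (-0.18 to 0.30, adjusted p = 0.704). Lrp6 averaged 6.71 ± 0.19 in TGF-β1 cells and 6.77 ± 0.068 in untreated cells, a difference of -0.06 (-0.31 to 0.19, adjusted p = 0.701), and its probe was above background on 2 of 3 TGF-β1 arrays. These intervals leave room for changes of up to about 0.45 on the log2 scale. Fzd1, Fzd3, Fzd4, Fzd8 and Fzd10 had no tested probe.

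Inhibitors could hardly be read. Of 16 probes of 12 genes, only that of Wif1, a secreted protein that binds Wnt ligands, was tested. Its log2 signals were 6.74, 6.61 and 6.69 in TGF-β1 cells and 6.74, 6.89 and 6.75 in untreated cells. The ranges met without crossing, and the difference was -0.12 (95% interval -0.31 to 0.08, adjusted p = 0.354). Dkk1, Dkk2, Dkk3, Dkk4 and Dkkl1, Sfrp1, Sfrp2, Sfrp4 and Sfrp5, Notum and Apcdd1 had no tested probe, with log2 signals from 5.90 to 6.75. Sfrp1 and Sfrp4, decoys that bind Wnt ligands, were above background on some arrays.

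**Figure D3:**
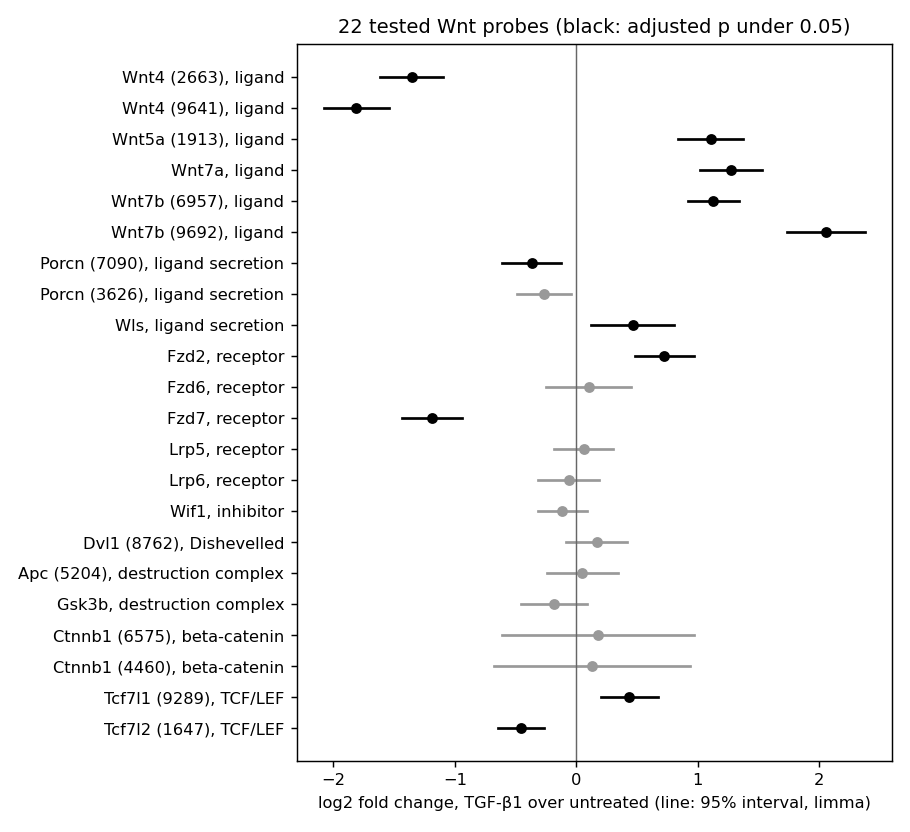
Log2 fold change, TGF-β1 over untreated, of the 22 tested Wnt probes grouped by role, with 95% intervals from limma (n = 3 arrays each). Black marks the 12 probes with an adjusted p under 0.05. Ligand probes span -1.81 to 2.06, while both Ctnnb1 probes have the widest intervals.

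Within the cell, the tested transducers did not pass. Dvl1, a Dishevelled protein that relays the signal from Frizzled, averaged 8.12 ± 0.13 in TGF-β1 cells and 7.95 ± 0.15 in untreated cells (SD, n = 3 each), a difference of 0.17 (95% interval -0.09 to 0.42, adjusted p = 0.289 from limma). Apc, a scaffold of the destruction complex, averaged 7.39 ± 0.15 in TGF-β1 cells and 7.34 ± 0.21 in untreated cells, a difference of 0.05 (-0.24 to 0.34, adjusted p = 0.81). Gsk3b, the kinase of that complex, averaged 8.16 ± 0.10 in TGF-β1 cells and 8.34 ± 0.20 in untreated cells, a difference of -0.18 (-0.45 to 0.09, adjusted p = 0.283). Dvl2, Dvl3 and the second Apc probe were not above background on any array.

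Ctnnb1 was measured by 2 probes. Probe ILMN_2994460 had log2 signals of 12.15, 12.84 and 13.15 in TGF-β1 cells and 13.00, 12.97 and 11.80 in untreated cells. Probe ILMN_2696575 had 10.62, 11.19 and 11.66 in TGF-β1 cells and 11.42, 11.29 and 10.23 in untreated cells. With both probes the lowest array was untreated replicate 3, followed by TGF-β1 replicate 1. The differences were 0.13 (95% interval -0.68 to 0.93, adjusted p = 0.823 from limma) and 0.18 (-0.61 to 0.97, adjusted p = 0.736). Their sign turned when TGF-β1 replicate 3 was left out (-0.09 and -0.07) and when untreated replicate 3 was left out (-0.27 and -0.20).

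Before normalization, the mean signal was 406, 439 and 519 on the TGF-β1 arrays and 519, 518 and 435 on the untreated arrays. TGF-β1 replicate 1 and untreated replicate 3, which had the lowest mean signal of their groups, also deviated together from their group means across all tested probes (r = 0.784). So did TGF-β1 replicate 3 with untreated replicates 1 (r = 0.704) and 2 (r = 0.573). With the mean signal as a covariate, which was added after the data were seen, the Ctnnb1 differences were 0.51 and 0.56 (adjusted p = 0.0128 and 0.00231). Without TGF-β1 replicate 1 and untreated replicate 3 they were 0.01 and 0.07 (adjusted p = 0.976 and 0.758). TGF-β1 replicate 2 was kept in that fit, although its mean signal of 439 was close to the 435 of untreated replicate 3.

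**Figure D4:**
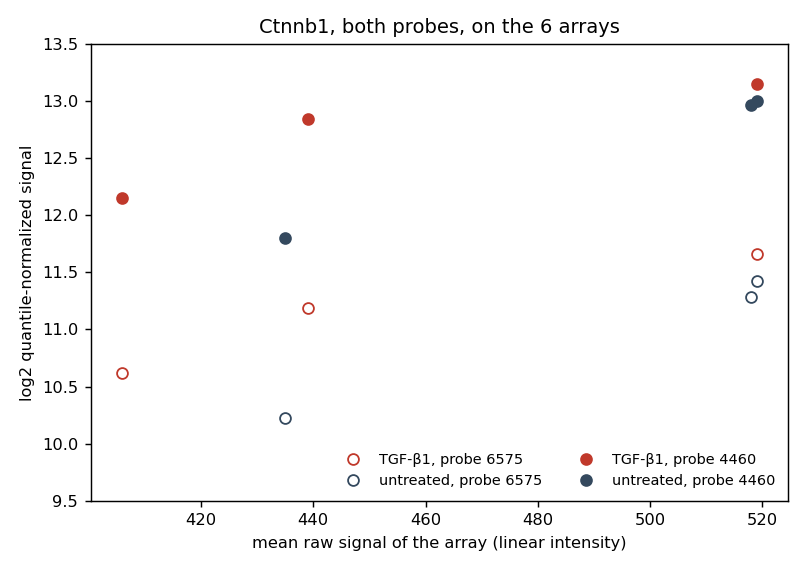
Log2 quantile-normalized signal of the 2 Ctnnb1 probes on each of the 6 arrays (vertical axis) against the mean signal of the array before normalization (horizontal axis, linear intensity). Filled points are probe ILMN_2994460 and open points ILMN_2696575, and within each group the arrays with a low mean signal have the lowest Ctnnb1 signal.

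Of the TCF/LEF factors, which bind DNA together with beta-catenin, Tcf7l1 and Tcf7l2 each had 1 tested probe and passed in opposite directions. Tcf7l1, mostly a repressor in stem cells, had log2 signals of 9.21, 9.03 and 8.92 in TGF-β1 cells and 8.55, 8.58 and 8.73 in untreated cells. It was higher by 0.44 (SE 0.103, adjusted p = 0.0126), and missed the threshold without untreated replicate 2 (0.0505). Tcf7l2, the main TCF of gut epithelium, had log2 signals of 9.07, 9.06 and 8.96 in TGF-β1 cells and 9.47, 9.42 and 9.55 in untreated cells. It was lower by a log2 difference of -0.45 (SE 0.082, adjusted p = 0.00376), with no overlap of the groups, and stayed under the threshold without any single array (highest adjusted p 0.0168).

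The feedback genes stayed in the background range. Lgr5, a stem cell marker and R-spondin receptor that amplifies Wnt signals, had log2 signals of 6.30, 6.13 and 6.04 in TGF-β1 cells and 6.05, 6.18 and 6.18 in untreated cells. Axin2, a destruction complex scaffold and the usual readout of canonical signaling, had 6.31, 6.29 and 6.46 in TGF-β1 cells and 6.45, 6.46 and 6.26 in untreated cells. The groups overlapped for both genes, and no array of either group was above background. Lef1 had 6.25, 6.11 and 6.21 in TGF-β1 cells and 6.24, 6.29 and 6.21 in untreated cells with probe ILMN_1239469. With probe ILMN_2648475 it had 6.09, 6.31 and 6.27 in TGF-β1 cells and 6.12, 6.14 and 6.12 in untreated cells. These signals set no level for the genes, since the arrays could not tell them from the negative controls. The same held for Nkd1 and Nkd2, which bind Dishevelled, for Rnf43 and Znrf3, which remove Frizzled receptors, and for Lgr6. In all, 53 Wnt probes were not above background on any array and 8 were above it on only 1 or 2 arrays of a group.

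Other genes of the pathway, outside the families above, gave a mixed picture. Of 82 probes of 52 such genes, 45 probes of 30 genes were tested. Of these, 9 were higher and 9 lower (40% called, beside 32.3% of all probes), with a median log2 fold change of 0.00048. By gene, 13 of the 30 had a probe that passed, beside 2800 of 7725 among all tested genes. Only 37 of the 45 probes were above background on all 6 arrays. The lower calls of Tle3, Frat1 and Rspo3 entered the test only through the untreated group, where they were high, so the filter favored the lower count. Cxxc4, which binds Dishevelled and inhibits the canonical branch, was higher by 0.81 (SE 0.075, adjusted p = 9.34e-05 from limma) and by 0.69 with its second probe. Vangl2, a core planar cell polarity protein, was higher by 0.73 (SE 0.090, adjusted p = 0.000478), and Daam1, a formin that binds Dishevelled, by 0.58 (SE 0.116, adjusted p = 0.00583). Csnk1d and Csnk1e encode casein kinases that phosphorylate Dishevelled. Csnk1d was higher by 0.48 and 0.43 with 2 of 5 tested probes, and the other 3 did not pass, with differences of 0.37 (adjusted p = 0.159), 0.31 (0.0531) and 0.19 (0.129). Csnk1e was higher with both of its tested probes, by 0.50 and 0.39. The larger Csnk1e change was lost without TGF-β1 replicate 1 (0.061) or 2 (0.064) or untreated replicate 1 (0.0698) or 2 (0.0665), and the smaller was not lost without any single array.

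Among the decreases, Frat2, which binds Gsk3 and keeps it from beta-catenin, differed by -0.94 (SE 0.120, adjusted p = 0.000587). Tle3, a Groucho co-repressor that binds TCF factors, was above background on all untreated arrays and on no TGF-β1 array with 3 probes, and was at least 1.55-fold, 1.36-fold and 1.12-fold lower. Senp2, a SUMO protease that can bind Axin, differed by -0.42 (SE 0.080, adjusted p = 0.00507). Rspo3, an R-spondin that enhances Wnt signals, differed by -0.40 (adjusted p = 0.0461), a call lost without TGF-β1 replicate 1 (0.0962) or 3 (0.129) or untreated replicate 2 (0.159) or 3 (0.0755). Frat1 was at least 1.12-fold lower (adjusted p = 0.0306), a call lost without TGF-β1 replicate 2 (0.11) or 3 (0.074) or untreated replicate 2 (0.076) or 3 (0.0571). These genes include activators and inhibitors of the pathway in both directions.

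Of 31 textbook target genes of beta-catenin and TCF, with 47 probes, 23 probes of 14 genes were tested. Of these, 12 were higher and 3 lower (65.2% called, beside 32.3% of all probes), with a median log2 fold change of 0.28. The share counts several probes of one gene separately, since the 12 belonged to 8 genes and the 3 to 1 gene. By gene, 9 of 14 had a probe that passed, beside 2800 of 7725 among all tested genes. Of the 23 probes, 19 were above background on all 6 arrays. The 9 targets that are also Wnt family or feedback genes (Axin2, Apcdd1, Dkk1, Notum, Nkd1, Lgr5, Rnf43, Znrf3 and Lef1) had no tested probe, so all calls came from the other targets. Ccn4, a matricellular protein also known as Wisp1, was higher by 2.35 (SE 0.118, adjusted p = 2.99e-06 from limma), and its second probe, above background on no untreated array, was at least 1.29-fold higher. Edn1, the vasoactive peptide endothelin, was higher by 1.89 (SE 0.111, adjusted p = 6.70e-06) and the AP-1 subunit Jun by 1.87 (SE 0.110, adjusted p = 6.46e-06). Myc, a growth regulator, was higher by 0.89 (SE 0.146, adjusted p = 0.00218).

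The adhesion receptor Cd44 was higher with 3 of 5 tested probes, by 0.69, 0.51 and 0.28, and the other 2 differed by 0.31 (adjusted p = 0.135 from limma) and 0.02 (0.889). The change of 0.69 was not lost without any single array, that of 0.51 was lost without TGF-β1 replicate 2 (0.0518), and that of 0.28 was lost without any array except untreated replicate 3 (highest adjusted p 0.134). Birc5, an inhibitor of apoptosis made in dividing cells, was the 1 gene that was lower, with 3 probes at -0.78, -0.77 and -0.75 (adjusted p = 0.00676, 0.00245 and 0.00579). Several of these targets, such as Jun, Myc and Edn1, are also known to respond to other pathways.

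**Figure D5:**
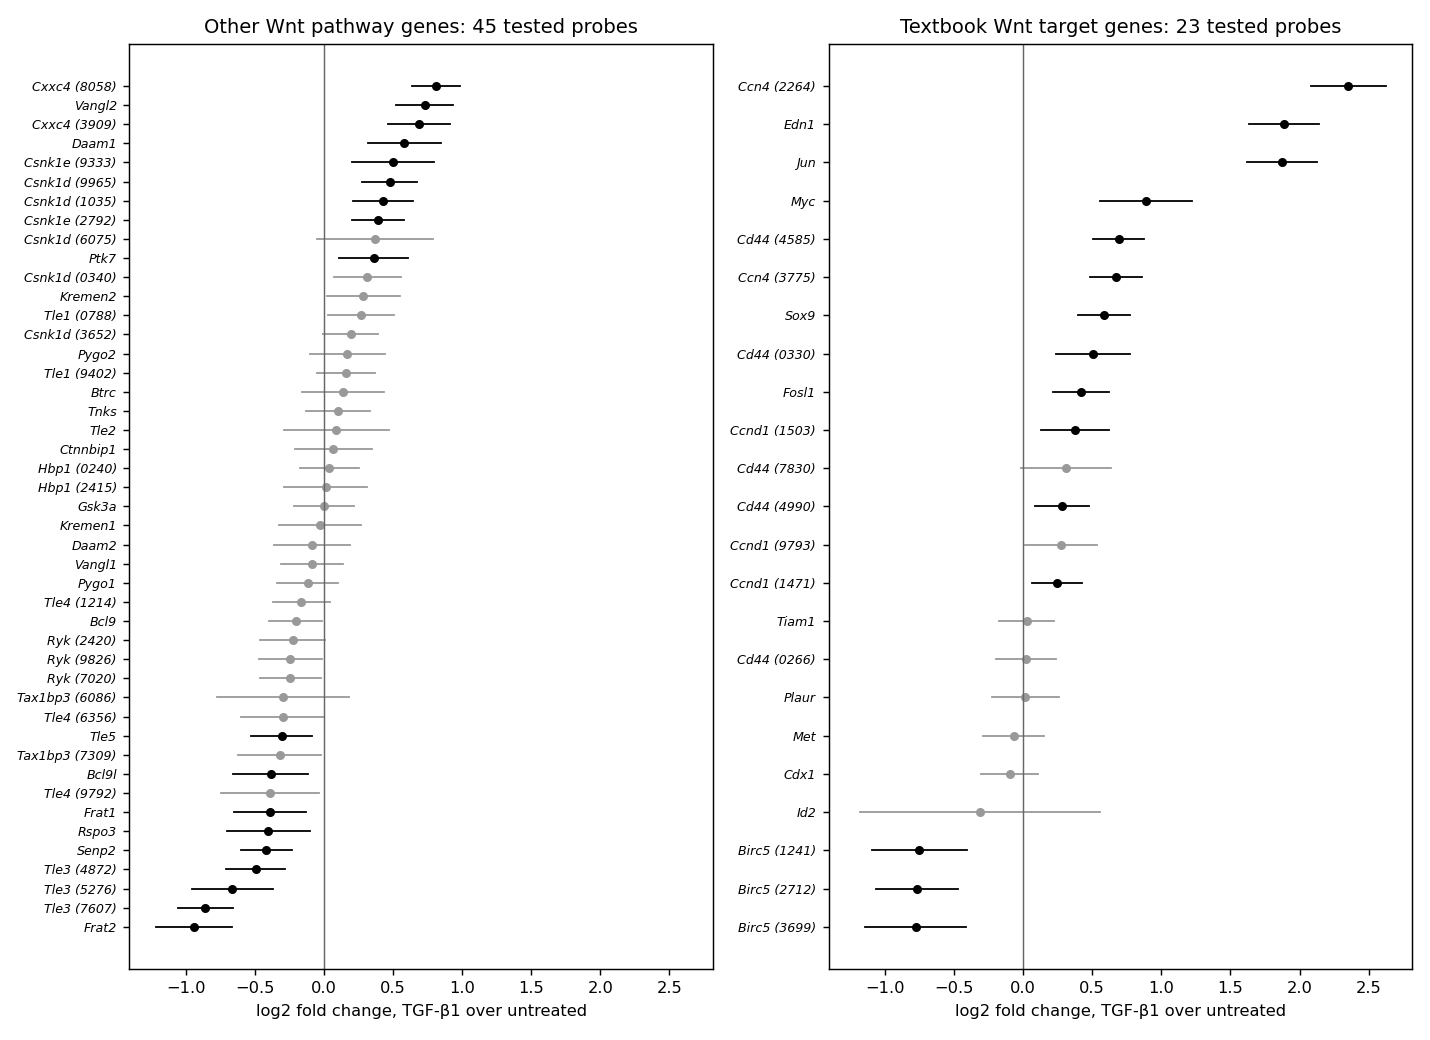
Log2 fold change, TGF-β1 over untreated, of the 45 tested probes of other Wnt pathway genes (left) and the 23 tested probes of textbook Wnt target genes (right), with 95% intervals from limma (n = 3 arrays each). Black marks probes with an adjusted p under 0.05, which are 9 higher and 9 lower on the left and 12 higher and 3 lower on the right.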

How the data were processed

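Biotin-labeled RNA of 6 samples was measured on bead arrays. The deposited values are non-normalized signal intensities, the mean brightness of a probe's beads without background subtraction (lowest 48.6), and a detection p-value per probe and array. The authors used the GenomeStudio Gene Expression module 1.9 for processing, and the deposited normalized intensities are quantile-normalized on a linear scale. These correlate with the values computed here with r of at least 0.999996 on the log2 scale. Probes were named from the platform annotation, in which 23978 probes have 1 symbol and 1719 none.

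Here the signal intensities were quantile-normalized and transformed to log2 (R 4.3.3, limma 3.58.1). Probes entered the test with a detection p under 0.05 on each of the 3 arrays of one or both groups, and this set was kept when an array was left out. TGF-β1 was compared with untreated by lmFit and eBayes with Benjamini-Hochberg adjustment over 11189 probes and a threshold of 0.05. Fold changes of probes above background on none of the 3 arrays of a group are given as lower bounds. For these, each such array took the higher of its lowest detected signal and the probe's own. Precision is limited by the number of arrays. The p-values measure the spread between these cultures of 1 line.

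The members, the gene lists and the tests were chosen with earlier results of these data known. Every member gene with a tested probe is named, with values on each array for probes that passed with at least 1.5-fold and for Lgr5, Axin2, Lef1 and Ctnnb1. The lists of other pathway and target genes give up to 5 genes in each direction past the threshold with the largest change. Values on each array for other members were added after they were seen.

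The alternatives were neqc (offset 16), scaling to one mean signal, the normalized values of the authors, and dropping the detection filter. Others were a detection p under 0.01 on each of the 6 arrays, and the brightest or the mean of a gene's tested probes. The rest were a block for the replicate number, a robust prior with an intensity trend, Student's t-test with Benjamini-Hochberg, SAM with a q under 0.05, at least 1.5-fold in addition, and leaving out each array. The study's methods applied SAM to these arrays and name Student's t-test for general comparisons. The mean signal as a covariate and leaving out TGF-β1 replicate 1 and untreated replicate 3 together were chosen after seeing the data. The fit was tested on simulated data. Promoters were taken from RefSeq (GRCm38.p6) and matched by gene symbol.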

Additional observations from a re-analysis of the deposited data

How the results depend on the processing

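Of the 12 Wnt probes that passed, 8 passed under every alternative that kept the probe, and no probe that passed turned its sign. The 8 are those with at least 1.5-fold. An alternative itself required 1.5-fold, so no probe with a smaller change could pass them all. Of the 8, the filter of detection p under 0.01 on all 6 arrays kept only Wnt7b probe ILMN_2789692, Fzd2 and Fzd7. It removed both Wnt4 probes, Wnt5a, Wnt7a and Wnt7b probe ILMN_2456957, so that setting could not test them. Porcn (ILMN_2637090), Wls, Tcf7l1 and Tcf7l2 lost the call under some, Tcf7l2 only where 1.5-fold was required. The number of Wnt probes higher and lower (7 and 5) was 4 and 3 with detection p under 0.01 on all 6 arrays. The lower count was 3 with the brightest probe of each gene and 3 with 1.5-fold required. Leaving out each array gave 5 to 7 higher and 4 to 5 lower.

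For the other pathway genes (9 higher, 9 lower), the lower count was 4 with the strict detection filter, 5 with SAM, 5 with the t-test and Benjamini-Hochberg, and 3 with 1.5-fold, which left 3 higher. Leaving out each array gave 7 to 10 higher and 5 to 8 lower, with 5 lower without TGF-β1 replicate 3 or untreated replicate 2. For the target genes (12 higher, 3 lower), the lower count was 1 with the brightest probe, the mean of a gene's probes or the t-test, and the higher count was 6 with 1.5-fold. Leaving out each array gave 8 to 12 higher and 3 lower. For all probes (1835 higher, 1776 lower), SAM gave 1148 higher, 1.5-fold gave 620 higher and 869 lower, and leaving out each array gave 1214 (without untreated replicate 2) to 2082 (without untreated replicate 3) higher and 1372 to 1813 lower.

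Same-numbered samples deviated from their group means with r of -0.666, 0.0734 and -0.778. TGF-β1 replicate 1 and untreated replicate 3, the arrays of lowest mean signal in their groups, deviated together (r = 0.784). So did TGF-β1 replicate 3 with untreated replicates 1 (r = 0.704) and 2 (r = 0.573). These values therefore cannot decide whether same-numbered samples were paired. With the replicate number as a block, 5 Wnt probes were higher and 4 lower, 7 target probes were higher, 5 other pathway probes were lower, and over all probes 946 were higher and 1151 lower.

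Signs turned only in probes that did not pass. Over the arrays left out, Apc ran from -0.069 (without untreated replicate 1, and -0.028 without TGF-β1 replicate 1) to 0.132, and was -0.047 with the mean signal as a covariate. Fzd6 ran from -0.0486 (without TGF-β1 replicate 3, and -0.0083 without untreated replicate 3) to 0.218, and Lrp6 from -0.164 to 0.017 (without TGF-β1 replicate 1), with 0.0426 without TGF-β1 replicate 1 and untreated replicate 3. Ctnnb1 ran from -0.198 to 0.447 (ILMN_2696575) and from -0.273 to 0.407 (ILMN_2994460), lowest without untreated replicate 3, with -0.072 and -0.091 without TGF-β1 replicate 3. The Gsk3b difference passed with the covariate (-0.27, adjusted p = 0.0382 from limma). The causes were not tested, beyond fewer probes or arrays where the setting removes them. Signals near background limit 61 of the 83 probes.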
